A study of Mus musculus with 10 samples.

Results

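The genes described here are 40 signalling genes of the Wnt pathway in mouse oocytes, from Wnt secretion through receptors, Dishevelled and the beta-catenin destruction complex to the nuclear factors, with a set of non-canonical genes. They were taken by gene symbol from a named list, and the list was chosen because the set tended to be lower with spermidine, so the values of the spermidine and aged libraries against each other chose the members. A row was found for 39 of the 40 among the 18493 genes of the deposited table, and Fzd9 was not analysed here. A filter on low counts left 27 of them among 12315 tested genes. The libraries were made from oocytes of the ovary by SMART-seq2, in which polyadenylated RNA is primed with oligo dT and its cDNA amplified. They fall into 4 spermidine libraries, which the labels call a rescue, 3 libraries of aged oocytes, labelled a treatment, and 3 of young oocytes, labelled controls. Spermidine is a polyamine, and the series asks how it alters the transcripts of aged oocytes. The labels give no strain, animal age, dose or route, no maturation stage and no number of oocytes or animals in a library, and the spermidine libraries are taken here as aged oocytes with spermidine.

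Wnt proteins are lipid-modified by Porcupine (Porcn), carried to the cell surface by Wntless (Wls), and bound there by a Frizzled receptor with the co-receptor LRP5 or LRP6. In the absence of a Wnt signal, a complex of Axin, APC, casein kinase 1 and GSK3 phosphorylates beta-catenin (Ctnnb1), which the ubiquitin ligase adaptor beta-TrCP (Btrc) then marks for the proteasome. With a signal, Dishevelled draws Axin to the receptor, beta-catenin builds up and acts in the nucleus with TCF and LEF proteins, while non-canonical branches act through planar cell polarity proteins and calcium instead. In the ovary the pathway is best known for its part in ovarian development and in granulosa cells, and fully grown oocytes store transcripts of many signalling genes, so an RNA level in them need not be the level of the protein or of signalling.

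Library totals lay between 24222185 and 28730790 counts. The 15 oocyte markers checked were all tested and summed to between 28318 and 48535 counts per 1000000 (CPM, relative to the scaled library total) in every library, with the oocyte growth factor gene Gdf9 at 5745 CPM or more. In aged against young oocytes 2 of the 15 were higher and 1 was lower, where 9.71% and 8.06% of all tested genes were. With spermidine 0 were higher and 2 lower than in aged oocytes, against 2.42% and 2.44% of all tested genes. The 12 granulosa and cumulus markers summed to 21.8 to 27.8 CPM in spermidine libraries, 20.4 to 24.0 CPM in aged libraries and 20.1 to 23.6 CPM in young libraries, with none at 0 throughout. Of the 6 tested, 2 were higher in aged than in young oocytes, against 9.71% of all tested genes. The highest of the 12 markers were Cyp19a1 at 8.81 to 16.7 CPM and Nr5a2 at 3.63 to 8.15 CPM, with Inha and Kitl at up to 3.60 CPM and 3.17 CPM, while Foxl2 and Amh reached at most 0.202 CPM and 0.0363 CPM. The 9 theca and stroma markers summed to at most 4.24 CPM in any library. The 11 blood, immune and endothelial markers summed to 8.51 to 11.1 CPM in spermidine libraries, 13.3 to 22.8 CPM in aged libraries and 10.95 to 35.4 CPM in young libraries. The part of other cells in the members' values was not tested. Longer transcripts tended to be higher in aged replicate 1 (r = 0.415 across genes between length and a gene's deviation from its mean) and in spermidine replicate 1 (r = 0.142), against r = -0.212 to 0.076 in the other 8 libraries. The same correlation with GC content was 0.38 in aged replicate 3, 0.256 in aged replicate 2, -0.262 in young replicate 3 and from -0.20 to 0.20 in the other 7 libraries. Results that rest on aged replicate 1 or spermidine replicate 1 are also given without them. Whether the libraries of a group came from separate animals is not stated, so a p-value here reflects a spread between samples that may be technical only. In bulk libraries fewer cells of a type and less RNA per cell cannot be told apart.

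The promoters of 3 of the members described below are shown, 250 bases before a transcript start, from RefSeq on GRCm38.p6. Wls and Dvl3 were higher in aged than in young oocytes, and Lef1 was low with spermidine. Each window is on the plus strand, and capitals mark a GC box (GGGCGG on either strand), the binding motif of Sp1-type factors, or a TCF and LEF motif (CTTTG followed by AT, TT, AA or TA, on either strand). The windows are chr3:159839400-159839649 for Wls, chr16:20516736-20516985 for Dvl3 and chr3:131156044-131156293 for an internal start of Lef1.
Wls: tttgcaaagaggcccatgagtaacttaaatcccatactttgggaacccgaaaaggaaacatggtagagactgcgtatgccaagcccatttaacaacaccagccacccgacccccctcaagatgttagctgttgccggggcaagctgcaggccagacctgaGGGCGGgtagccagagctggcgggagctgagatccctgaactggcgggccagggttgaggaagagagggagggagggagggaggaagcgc
Dvl3: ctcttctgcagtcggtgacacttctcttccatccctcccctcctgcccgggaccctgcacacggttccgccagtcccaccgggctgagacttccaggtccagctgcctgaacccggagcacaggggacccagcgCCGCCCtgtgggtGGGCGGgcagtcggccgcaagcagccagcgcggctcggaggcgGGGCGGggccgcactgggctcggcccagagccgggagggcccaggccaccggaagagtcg
Lef1 internal start: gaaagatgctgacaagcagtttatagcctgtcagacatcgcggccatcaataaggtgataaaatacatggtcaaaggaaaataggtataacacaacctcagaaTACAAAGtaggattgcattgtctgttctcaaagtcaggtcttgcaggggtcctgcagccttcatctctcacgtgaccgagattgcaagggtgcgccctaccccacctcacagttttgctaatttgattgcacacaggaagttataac
The Wls window held 1 GC box and the Dvl3 window 3, and neither held a TCF and LEF motif. The internal Lef1 start had 1 TCF and LEF motif, CTTTGTA on the minus strand, 147 bases before the start, and no GC box. The table holds 4 windows of Lef1, and each of the other 3 had 1 GC box and no TCF and LEF motif. Tcf7, not shown, had a window with 2 GC boxes and a window with 1, both without a TCF and LEF motif. RefSeq promoters were found for 27 members, 19 of them tested, with 43 windows in all. Of these windows 33 (76.7%) held a GC box and 5 (11.6%) a TCF and LEF motif. For the 19 tested members, 27 (84.4%) and 4 (12.5%) of 32 windows did. Among all 32851 promoter windows the shares were 32.7% and 14.8%, and among the 12614 windows of tested genes they were 53.6% and 10.96%. Some genes have several windows, which can overlap. Counted by gene, a TCF and LEF motif was found in 18.5% of members, 21.1% of tested members, 16.8% of all genes and 12.99% of tested genes. A GC box was found in 88.9%, 94.7%, 35.4% and 59.7% of those genes. A match is a run of letters in the window and was not tested as a binding site.

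Wnt pathway transcripts spanned a wide range of levels in these oocytes, and the most abundant belonged to the cytoplasmic complex that handles beta-catenin. Levels are compared between genes as CPM per kilobase of transcript (CPM/kb), a mean over the 10 libraries. By that measure Btrc stood first at 68.9 CPM/kb, before the casein kinases Csnk1e at 44.4 CPM/kb and Csnk1a1 at 24.7 CPM/kb and beta-catenin itself, Ctnnb1, at 21.97 CPM/kb. Outside that complex the highest were the planar cell polarity gene Prickle1 at 13.5 CPM/kb, the formin gene Daam1 at 6.17 CPM/kb, the nuclear factors Tcf7 at 5.97 CPM/kb and Lef1 at 5.50 CPM/kb, and the Wnt carrier Wls at 4.59 CPM/kb. Receptors were scarce by that measure, with Lrp6 at 1.28 CPM/kb and Fzd3 at 0.954 CPM/kb the highest. These rest on long annotated transcripts, of 9368 bases for Lrp6 and 12734 bases for Fzd3. Before division by length their means, 12.0 CPM and 12.1 CPM, were near those of Wls (12.9 CPM) and Tcf7 (12.6 CPM).

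**Figure D1:**
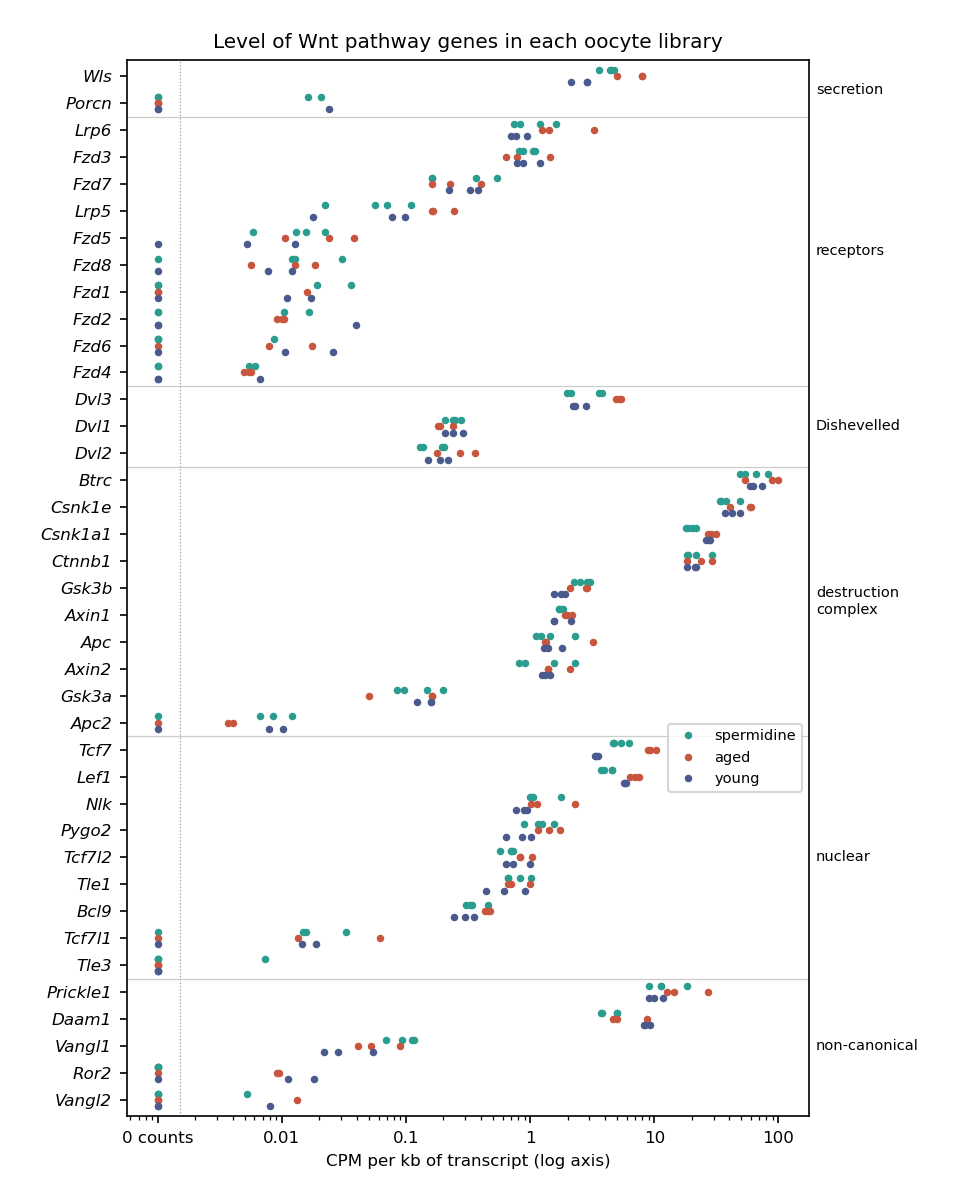
Level of each Wnt pathway member with a row in the table, as CPM per kilobase of transcript on a log axis, 1 point per library, grouped by role and coloured by group (spermidine, aged, young). Points left of the dotted line had 0 counts. Btrc, Csnk1e, Csnk1a1 and Ctnnb1 lie at the top, and most Frizzled genes lie far to the left, many with libraries at 0 counts.

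Several families were carried mostly by 1 gene. Fzd3 made up 63.1% to 81.0% and Fzd7 14.9% to 31.3% of the summed Frizzled CPM/kb in a library. Dvl3 made up 81.6% to 93.1% of Dishevelled, Gsk3b 90.7% to 98.2% of GSK3 and Lrp6 83.7% to 97.5% of the LRP5 and LRP6 pair. Other families were shared. Tcf7 and Lef1 divided the TCF and LEF family, Axin1 took 44.6% to 67.7% and Axin2 32.3% to 55.4% of Axin, and Csnk1e took 56.6% to 71.0% and Csnk1a1 29.0% to 43.4% of their casein kinase pair.

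The 12 members left out by the filter were Porcn, Fzd1, Fzd2, Fzd4, Fzd5, Fzd6, Fzd8, Apc2, Tcf7l1, Tle3, Vangl2 and Ror2. Each stayed at or under 0.265 CPM and 7 counts in every library, where 3 counts, the limit that a count of 0 allows, are worth 0.104 to 0.124 CPM of the unscaled totals. Porcupine, 6 Frizzled receptors and the non-canonical receptor Ror2 were therefore near the detection limit in all 3 groups, and differences in them were not detectable at this depth. The filter asked for about 0.372 CPM in at least 3 libraries. Among the members just inside it, Lrp5 was over that level in 2 spermidine, 3 aged and 1 young libraries, Gsk3a in 2, 1 and 0, and Vangl1 in 4, 1 and 0.

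Between aged and young oocytes, 5 of the 27 tested members were higher in aged oocytes and 0 lower: Wls, which carries Wnt proteins to the surface, the co-receptor gene Lrp6, the Dishevelled gene Dvl3, the kinase gene Gsk3b and the transcription factor gene Tcf7. The calls come from the edgeR quasi-likelihood test, adjusted by Benjamini-Hochberg over all tested genes. By it 17.8% of tested genes were called, 9.71% higher and 8.06% lower, while the 5 members were 18.5% of those tested. At an unadjusted p under 0.05, 10 members were higher and 1 was lower, where 19.4% and 15.3% of all tested genes were. DESeq2 called 6 members higher and 0 lower, and 10.5% and 10.9% of the genes it tested. The members' median log2 fold change was 0.32, against 0.10 over all tested genes. Above 0 were 23 of the 27 values, and 56.0% of those of all tested genes. All aged libraries stood above all young libraries for 11 members (40.7%), against 21.1% of tested genes, and below them for 0 members, against 18.8%. This comparison shares its aged libraries with the one that chose the members, so genes high in those libraries were favoured on the way in, and these counts are not independent of that choice.

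**Figure D2:**
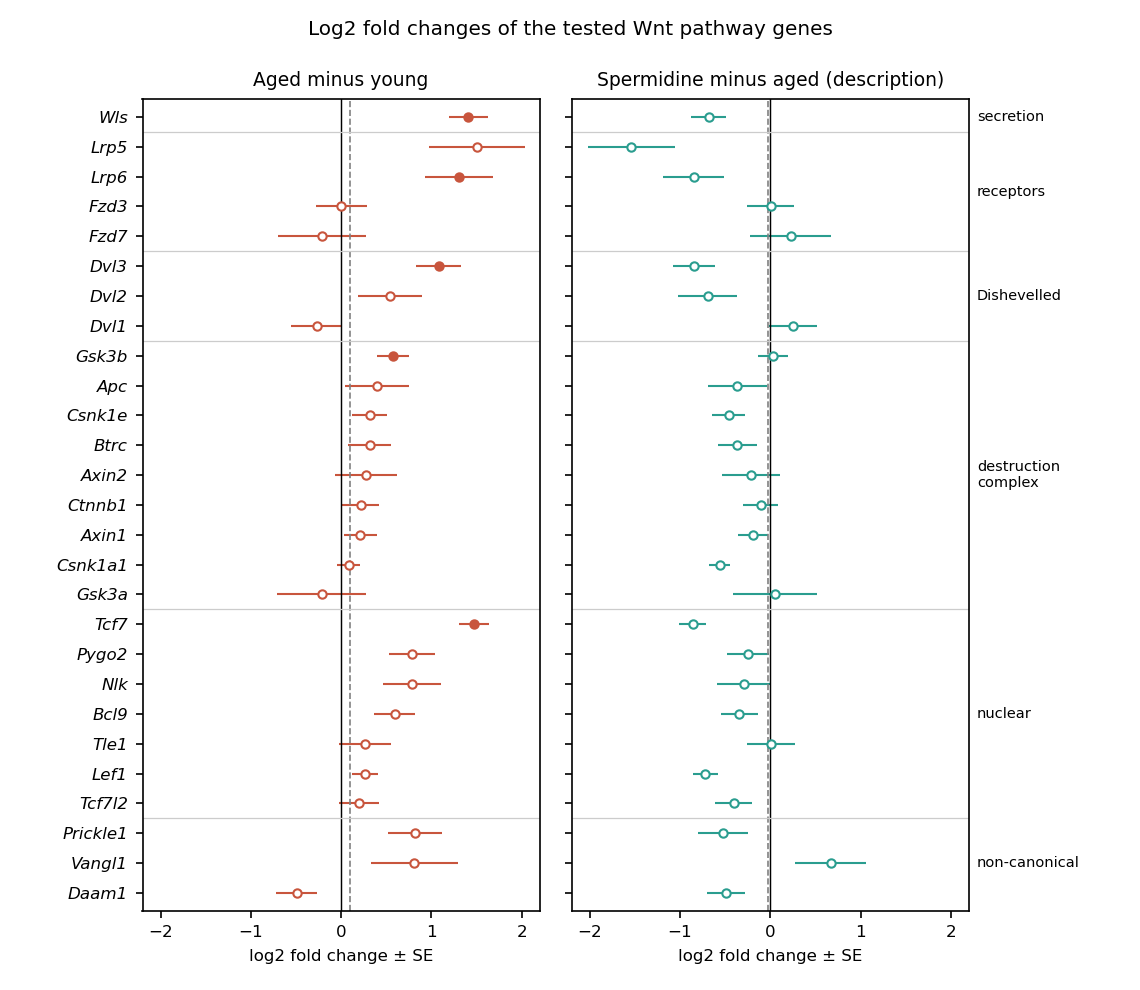
Log2 fold change with its SE for each tested member, grouped by role, for aged minus young (left) and spermidine minus aged (right), with the median of all tested genes as a dashed line. Filled points passed the edgeR threshold in aged minus young (Wls, Lrp6, Dvl3, Gsk3b and Tcf7), and 23 of the 27 values lie above 0 there (56.0% over all tested genes). Spermidine minus aged chose the members and is drawn as a description, without marks for calls.

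Wls rose in aged oocytes, and spermidine libraries lay between the other groups. Wls (Gene ID 68151) had 10.1, 13.3, 12.6 and 12.4 CPM in spermidine libraries, 22.2, 22.1 and 14.0 CPM in aged libraries and 5.94, 7.97 and 8.05 CPM in young libraries. Every aged library was above every spermidine library, and every spermidine library above every young one. The mean was 19.4 CPM ± 4.71 (SD, n = 3) in aged and 7.32 CPM ± 1.19 (SD, n = 3) in young oocytes, a log2 fold change of 1.41 (SE 0.21, edgeR adjusted p = 0.00174). Spermidine libraries averaged 12.1 CPM ± 1.38 (SD, n = 4), a log2 difference of -0.68 (SE 0.19) from aged and 0.72 (SE 0.20) from young libraries. In the authors' deposited table the log2 value of Wls for aged against young was 1.37, with a q-value of 4.84e-06.

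Among the receptors, the co-receptor gene Lrp6 was higher in aged oocytes, and neither tested Frizzled gene passed. Lrp6 (Gene ID 16974) had 15.2, 11.3, 7.82 and 6.98 CPM in spermidine libraries, 30.9, 11.7 and 13.3 CPM in aged libraries and 6.59, 7.18 and 8.89 CPM in young libraries. Aged replicate 1 stood far above the rest, and the other 2 aged libraries were still above the young ones and within the range of the spermidine libraries. The log2 fold change of aged minus young was 1.302 (SE 0.37, edgeR adjusted p = 0.0329). Without aged replicate 1 it was 0.68 and no longer passed (edgeR adjusted p = 0.111). The call was also lost without spermidine replicate 2 (edgeR adjusted p = 0.0512) and without young replicate 1, 2 or 3 (edgeR adjusted p = 0.124, 0.0871 and 0.0772). Leaving out aged replicate 1 together with spermidine replicate 1 it passed (log2 0.68, edgeR adjusted p = 0.0424). Its close relative Lrp5 was low throughout, with 0.361, 0.290, 0.567 and 0.115 CPM in spermidine libraries, 0.834, 1.25 and 0.844 CPM in aged libraries and 0.0921, 0.503 and 0.400 CPM in young libraries. The 3 aged libraries were the highest for Lrp5, at a log2 fold change of 1.51 that did not pass (edgeR adjusted p = 0.0682). Fzd3, the main Frizzled gene, averaged 12.2 CPM ± 1.65 (SD, n = 4) in spermidine, 12.1 CPM ± 5.36 (SD, n = 3) in aged and 12.1 CPM ± 2.88 (SD, n = 3) in young oocytes. Fzd7 averaged 1.39 CPM ± 0.826, 1.20 CPM ± 0.571 and 1.405 CPM ± 0.370 in those groups, so for both Frizzled genes the group means differed by less than the spread between libraries.

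Dvl3, which passes the signal on from the receptor, rose in aged oocytes. Dvl3 (Gene ID 13544) had 11.5, 6.42, 6.93 and 12.4 CPM in spermidine libraries, 16.8, 15.9 and 17.6 CPM in aged libraries and 9.17, 7.50 and 7.16 CPM in young libraries. The 3 aged libraries lay close together above all others, and the spermidine and young libraries overlapped. The log2 fold change of aged minus young was 1.078 (SE 0.25, edgeR adjusted p = 0.0139), and the call was lost after correction for transcript length and GC content (log2 0.62, edgeR adjusted p = 0.0596) and without young replicate 3 (edgeR adjusted p = 0.0694). Dvl1 averaged 0.816 CPM ± 0.0987 in spermidine, 0.683 CPM ± 0.109 in aged and 0.820 CPM ± 0.140 in young oocytes, and Dvl2 averaged 0.493 CPM ± 0.114, 0.802 CPM ± 0.269 and 0.548 CPM ± 0.101. Neither of these less abundant genes passed, so the Dishevelled call rested on the member that made up most of the family.

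Of beta-catenin and its destruction complex, 9 members were tested, with a median log2 fold change of 0.28 for aged minus young. In aged oocytes 1 of them (11.1%), Gsk3b, was higher and 0 were lower, against 9.71% and 8.06% of all tested genes. Ctnnb1 (Gene ID 12387) had 92.6, 68.6, 59.3 and 57.5 CPM in spermidine libraries, 91.5, 57.5 and 75.04 CPM in aged libraries and 58.1, 68.0 and 66.9 CPM in young libraries. The 3 groups overlapped, and the 2 highest values were spermidine replicate 1 and aged replicate 1. For Ctnnb1 the aged minus young log2 fold change was 0.22 (SE 0.21, edgeR adjusted p = 0.477). Axin2 (Gene ID 12006), a scaffold that in many tissues is also a target of the pathway, had 9.78, 6.63, 3.48 and 3.84 CPM in spermidine libraries, 8.88, 5.87 and 5.94 CPM in aged libraries and 5.34, 6.10 and 5.65 CPM in young libraries. Its groups overlapped as well, with the same 2 libraries at the top and a log2 fold change of 0.28 (SE 0.34, edgeR adjusted p = 0.586) for aged minus young. After correction for length and GC content the aged minus young value of Axin2 was -0.12, and that of Ctnnb1 was -0.0033 with aged replicate 1 and spermidine replicate 1 both left out.

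Gsk3b (Gene ID 56637), one of the kinases that mark beta-catenin for destruction, had 20.8, 23.6, 18.6 and 25.1 CPM in spermidine libraries, 23.8, 23.3 and 17.4 CPM in aged libraries and 14.7, 12.8 and 15.8 CPM in young libraries. Spermidine and aged libraries overlapped, and both lay above the young libraries. The log2 fold change of aged minus young was 0.57 (SE 0.18, edgeR adjusted p = 0.0427). It was the least stable of the 5 calls, lost in 13 of 20 alternative settings, with values from 0.34 to 0.72 and adjusted p from 0.0267 to 0.266, and its q-value in the authors' deposited table was 0.0755. The settings that lost it include leaving out any 1 of the young libraries, aged replicate 1 or 2, or spermidine replicate 1 or 2.
Csnk1a1 (Gene ID 93687), the kinase that primes beta-catenin for GSK3, had 88.1, 73.9, 76.6 and 81.8 CPM in spermidine libraries, 128, 116 and 111 CPM in aged libraries and 113, 107 and 115 CPM in young libraries. Aged and young libraries overlapped, and all 4 spermidine libraries lay below both. Its log2 fold change was 0.08 (SE 0.13, edgeR adjusted p = 0.664) for aged minus young.
Btrc (Gene ID 12234) had 108, 118, 144 and 182 CPM in spermidine libraries, 119, 218 and 195 CPM in aged libraries and 137, 162 and 128 CPM in young libraries. The groups overlapped, and aged replicate 1 was the lowest aged library for this gene. Btrc had a log2 fold change of 0.32 (SE 0.24, edgeR adjusted p = 0.359) for aged minus young. Csnk1e averaged 114 CPM ± 20.8 in spermidine, 157 CPM ± 32.4 in aged and 126 CPM ± 17.8 in young oocytes. The scaffold genes Apc and Axin1 averaged 19.5 CPM ± 6.97 and 5.89 CPM ± 0.238 in spermidine, 25.1 CPM ± 14.1 and 6.75 CPM ± 0.404 in aged, and 19.1 CPM ± 3.42 and 5.81 CPM ± 1.13 in young oocytes. Aged replicate 1 had 41.4 CPM of Apc, against 17.2 and 16.8 CPM in the other aged libraries. Gsk3a, near the filter, averaged 0.296 CPM ± 0.116, 0.283 CPM ± 0.146 and 0.330 CPM ± 0.0468. None of these 4 passed for aged minus young.

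**Figure D3:**
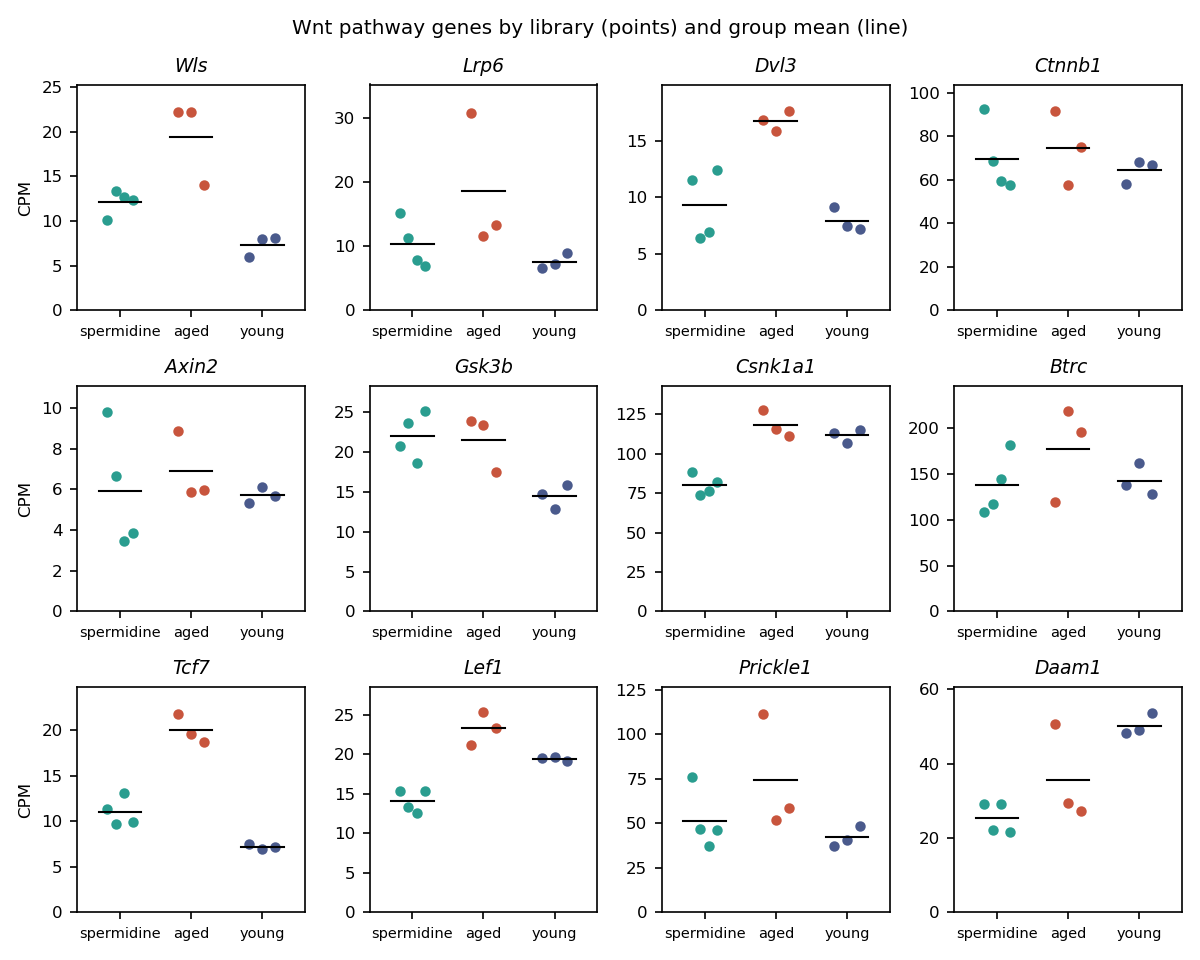
CPM of the 12 members given with a value per library, 1 panel per gene on a linear axis from 0, with spermidine, aged and young libraries from left to right, 1 point per library and a line at the group mean. Tcf7 and Wls show aged above spermidine above young without overlap, Lef1 and Csnk1a1 show the 4 spermidine libraries below both other groups, and Ctnnb1 shows all 3 groups in 1 range.

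Among the nuclear factors Tcf7 rose in aged oocytes by more than any other member that passed, while Lef1 did not pass between aged and young oocytes. Tcf7 (Gene ID 21414), which encodes TCF1, a DNA-binding partner of beta-catenin, had 11.4, 9.72, 13.1 and 9.90 CPM in spermidine libraries, 21.8, 19.6 and 18.7 CPM in aged libraries and 7.46, 6.97 and 7.16 CPM in young libraries. The 3 groups were separate, with aged highest and young lowest. The mean was 20.01 CPM ± 1.60 (SD, n = 3) in aged and 7.20 CPM ± 0.251 (SD, n = 3) in young oocytes, a log2 fold change of 1.48 (SE 0.17, edgeR adjusted p = 0.000295). Over the alternative settings the value of Tcf7 ran from 1.34 to 1.62, with adjusted p from 4.25e-14 to 0.00315, and in the authors' deposited table its log2 value was 1.44 with a q-value of 2.52e-12. The counts of Tcf7 were not whole numbers in any of the 10 libraries, so they are in part estimates made by the authors' counting.
Lef1 (Gene ID 16842), which encodes the related factor LEF1, had 15.4, 13.3, 12.5 and 15.3 CPM in spermidine libraries, 21.2, 25.3 and 23.3 CPM in aged libraries and 19.5, 19.7 and 19.1 CPM in young libraries. All 4 spermidine libraries were the lowest, and the aged libraries stood just above the young ones. Lef1 had an aged minus young log2 fold change of 0.26 (SE 0.15, edgeR adjusted p = 0.223).
Both genes are also known from T lymphocytes. The T cell marker gene Cd3e reached at most 0.138 CPM and the leukocyte gene Ptprc at most 4.15 CPM in any library, and the part of such cells in the values of Tcf7 and Lef1 was not tested.

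Tcf7 and Lef1 took different shares of the family in young libraries than in spermidine and aged libraries. Tcf7 made up 47.1% to 59.0% of the summed TCF and LEF CPM/kb in spermidine libraries, 51.8% to 59.1% in aged libraries and 33.7% to 35.1% in young libraries. Lef1 made up 35.3% to 45.7% in spermidine libraries, 36.1% to 42.1% in aged libraries and 56.4% to 59.7% in young libraries. The shares of the spermidine and aged libraries overlapped, and the young libraries stood apart, with Lef1 the larger share. The ratio of Tcf7 to Lef1 per kilobase was 1.18, 1.16, 1.67 and 1.03 in spermidine libraries, 1.64, 1.23 and 1.28 in aged libraries and 0.609, 0.564 and 0.598 in young libraries. It averaged 1.26 ± 0.281 (SD, n = 4) with spermidine, 1.38 ± 0.222 (SD, n = 3) in aged and 0.590 ± 0.0233 (SD, n = 3) in young oocytes. These shares set 1 transcript length per gene, and which isoforms of Tcf7 and Lef1 the oocytes held was not analysed here. Tcf7l2 averaged 2.10 CPM ± 0.212 in spermidine, 2.79 CPM ± 0.377 in aged and 2.43 CPM ± 0.568 in young oocytes, and Tcf7l1 took at most 0.343% of the family.

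**Figure D4:**
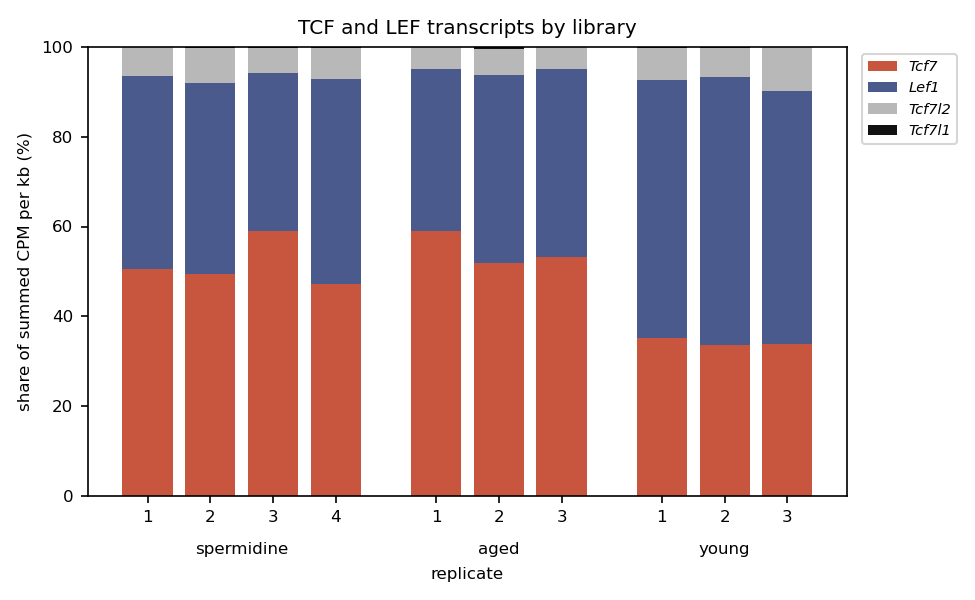
Share of the summed TCF and LEF level (CPM per kilobase, percent) taken by Tcf7, Lef1, Tcf7l2 and Tcf7l1 in each library, as stacked bars from 0, with spermidine libraries first, then aged, then young. Tcf7 takes 47.1% or more in every spermidine and aged library and at most 35.1% in the young libraries.

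The remaining nuclear members act as co-factors of beta-catenin or as modifiers, and none of them passed. The co-activator genes Bcl9 and Pygo2 averaged 2.17 CPM ± 0.411 and 3.70 CPM ± 0.826 in spermidine, 2.76 CPM ± 0.130 and 4.40 CPM ± 0.891 in aged, and 1.82 CPM ± 0.340 and 2.55 CPM ± 0.580 in young oocytes. Their aged libraries did not overlap the young ones, with log2 fold changes of 0.59 for Bcl9 and 0.78 for Pygo2 (edgeR adjusted p = 0.0863 and 0.0540). The kinase gene Nlk, whose product acts on TCF and LEF proteins, averaged 5.38 CPM ± 1.63, 6.61 CPM ± 3.13 and 3.85 CPM ± 0.383 in the same groups, and the co-repressor gene Tle1 averaged 2.88 CPM ± 0.589, 2.86 CPM ± 0.671 and 2.39 CPM ± 0.846. Over the 7 tested nuclear members the median log2 fold change of aged minus young was 0.59. Above 0 were 7 of 7 values, and 56.0% over all tested genes. The 1 call, higher in aged oocytes, was 14.3% of them, against 9.71% of all tested genes.

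Of the 3 tested non-canonical genes 0 passed for aged minus young by edgeR, against 17.8% of all tested genes. At an unadjusted p under 0.05, 1 was higher and 1 lower, where 19.4% and 15.3% of all tested genes were. Prickle1 (Gene ID 106042), a planar cell polarity gene, had 75.9, 46.7, 37.1 and 46.1 CPM in spermidine libraries, 111, 52.1 and 58.7 CPM in aged libraries and 37.3, 40.7 and 48.4 CPM in young libraries. Aged replicate 1 and spermidine replicate 1 were the highest of their groups, and the aged libraries were above the young ones. Prickle1 had an aged minus young log2 fold change of 0.82 (SE 0.30, edgeR adjusted p = 0.0789). Without aged replicate 1 it was 0.35, the lowest value with 1 library left out, and it passed in none of the alternatives run.
Daam1 (Gene ID 208846), whose product links Dishevelled to the actin cytoskeleton in polarity signalling, had 29.1, 22.2, 29.1 and 21.6 CPM in spermidine libraries, 50.6, 29.3 and 27.3 CPM in aged libraries and 48.2, 48.9 and 53.6 CPM in young libraries. Aged replicate 1 stood with the young libraries and the other 2 aged libraries with the spermidine ones. The log2 fold change of aged minus young was -0.49 (SE 0.23, edgeR adjusted p = 0.144). Without aged replicate 1 it was -0.87 and passed (edgeR adjusted p = 0.00764), as it did with aged replicate 1 and spermidine replicate 1 both left out (log2 -0.88, edgeR adjusted p = 0.00408) and after length and GC correction (log2 -0.75, edgeR adjusted p = 0.00591). Vangl1, another polarity gene, averaged 0.637 CPM ± 0.141 in spermidine, 0.398 CPM ± 0.168 in aged and 0.228 CPM ± 0.113 in young oocytes, close to the filter.

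Set against aged oocytes, the spermidine libraries were low in most members, which is how the list was chosen, so the values are given as a description. The log2 difference was below 0 for 20 of 27 members and above it for 7. Over all tested genes 47.5% were above 0. The members' median was -0.36, against -0.03 over all tested genes, with a range of -1.54 (Lrp5) to 0.67 (Vangl1). Past the edgeR threshold stood 3 members lower and 0 higher, where 4.86% of tested genes were past it, 2.44% lower and 2.42% higher. The 3 were Csnk1a1 at -0.56 (SE 0.12), Tcf7 at -0.86 (SE 0.15) and Lef1 at -0.72 (SE 0.14). DESeq2 placed 0 members higher (5.49% of the genes it tested), and 0 were higher at an unadjusted p under 0.05 (12.0% of tested genes). By role the median was -0.42 for receptors, -0.69 for Dishevelled, -0.21 for the beta-catenin complex, -0.34 for nuclear factors and -0.49 for non-canonical genes. All spermidine libraries lay below all aged libraries for 8 members and above them for 0, while over all tested genes those shares were 8.49% and 11.4%. Leaving out 1 library moved the count of lower members between 0 and 4. Csnk1a1 and Lef1 were no longer past the threshold without spermidine replicate 2 or 3 or aged replicate 2 or 3, at values from -0.54 to -0.61 and from -0.66 to -0.72, and Tcf7 without spermidine replicate 2, at -0.82.

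Against young oocytes the members in spermidine libraries lay on both sides of 0. The median log2 difference was 0.03, against 0.04 over all tested genes. Above 0 were 17 of 27 members, and 54.7% of all tested genes. Past the threshold stood 1 member higher, Tcf7 at 0.62 (SE 0.16), and 2 lower, Csnk1a1 at -0.48 (SE 0.12) and Daam1 at -0.98 (SE 0.21), where 5.36% of tested genes were past it, 3.44% higher and 1.92% lower. All spermidine libraries lay above all young libraries for 5 members and below them for 3, against 12.1% and 8.92% of tested genes. Lef1, at -0.46 (SE 0.14), was among the 3 below, as were Csnk1a1 and Daam1. These values share the spermidine libraries with the comparison that chose the members and carry no test here. Leaving out 1 library moved the higher count between 0 and 2 and the lower count between 0 and 3. Tcf7 was no longer past the threshold without any 1 young library, spermidine replicate 1, 2 or 3, or aged replicate 2 or 3. The same held of Daam1 without any 1 young library or spermidine replicate 2, and of Csnk1a1 without any 1 young library, spermidine replicate 2, 3 or 4, or aged replicate 2 or 3.

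Among 136 other Wnt pathway genes on 7 lists, the cyclin gene Ccnd2 and the transcription factor gene Nfatc1 differed between aged and young oocytes by more than any member that passed. Of 75 tested, 10 (13.3%) rose and 2 (2.67%) fell in aged against young oocytes by edgeR, against 9.71% and 8.06% of all tested genes, with a median log2 fold change of 0.38. With spermidine, 2 (2.67%) were higher and 6 (8.0%) lower than in aged oocytes, against 2.42% and 2.44% of all tested genes, with a median of -0.24. Spermidine values of the pathway chose the members, so those of the other pathway genes are given as a description too, with no test.
Wnt ligand transcripts were scarce. Of 19 ligand genes 14 were in the table and 12 of these stayed at or under 0.391 CPM and 13 counts in every library, while 2 were tested, Wnt4 and Wnt7a, which averaged 0.392 CPM ± 0.207 and 0.791 CPM ± 0.322 in spermidine, 0.259 CPM ± 0.0949 and 0.980 CPM ± 0.115 in aged, and 0.526 CPM ± 0.223 and 0.657 CPM ± 0.110 in young oocytes. Neither passed in any comparison, and both were named for being the 2 ligands tested. Of 4 tested secreted antagonists 1 (25%, against 9.71% of all tested genes) rose in aged oocytes, Dkk1, whose product binds LRP6 and blocks it. Dkk1 averaged 7.27 CPM ± 1.44 (SD, n = 4) with spermidine, 3.83 CPM ± 1.08 (SD, n = 3) in aged and 1.67 CPM ± 0.660 (SD, n = 3) in young oocytes. Its log2 fold change was 1.21 (SE 0.31, edgeR adjusted p = 0.0211) for aged minus young, and its values were 2.13 (SE 0.30) for spermidine minus young and 0.92 (SE 0.27) for spermidine minus aged. The aged call was lost without aged replicate 1, without it and spermidine replicate 1 together, and without young replicate 1 or 2 (edgeR adjusted p = 0.0569, 0.0543, 0.0828 and 0.0676). The spermidine minus young value was past the threshold in every setting run, and the spermidine minus aged value was not past it in the edgeR fit over all libraries but was with DESeq2, without aged replicate 1, and without it and spermidine replicate 1 together (0.91, 1.18 and 1.17). The mean of Dkk1 was highest in the spermidine group, while those of Wls, Tcf7 and Dvl3 were highest in the aged group.

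Among 6 tested genes of R-spondin signalling and receptor turnover, 1 (16.7%, against 9.71% of all tested genes) was higher in aged than in young oocytes. It was Lgr6, an R-spondin receptor gene (log2 0.72, SE 0.21, edgeR adjusted p = 0.0357). With spermidine, Znrf3, whose product removes Frizzled from the surface, stood at 0.72 and the oocyte-expressed ligand gene Rspo2 at -0.61 relative to aged oocytes on the log2 scale, both past the threshold. Znrf3 averaged 15.0 CPM ± 1.67 (SD, n = 4) with spermidine and 9.09 CPM ± 1.62 (SD, n = 3) in aged oocytes, and Rspo2 averaged 122 CPM ± 15.3 (SD, n = 4) with spermidine and 186 CPM ± 34.3 (SD, n = 3) in aged oocytes. Znrf3 and Rspo2 were no longer past it in 10 and 13 of 20 alternative settings, among them leaving out aged replicate 2 or 3 or any 1 young library, at values of 0.58 to 0.81 and -0.74 to -0.47 with 1 library left out. Of 22 other cytoplasmic regulators 4 (18.2%) rose and 1 (4.55%) fell in aged oocytes, against 9.71% and 8.06% of all tested genes. The casein kinase genes Csnk1g1 (log2 0.74) and Csnk1g2 (log2 0.84), the beta-TrCP paralog Fbxw11 (log2 0.64) and the cullin gene Cul1 (log2 0.46) were higher (edgeR adjusted p = 0.0371, 0.0418, 0.0296 and 0.0451). The ligase subunit gene Rbx1 was lower (log2 -0.76, SE 0.16, edgeR adjusted p = 0.00907). Cul1 and Rbx1 encode partners in the ligase that beta-TrCP joins, and their values lay in opposite directions.
Of 14 other nuclear co-factors 1 (7.14%, against 9.71% of all tested genes) rose in aged oocytes, Ldb1 (log2 0.98, SE 0.23, edgeR adjusted p = 0.0142). Of 8 tested genes often used as targets of the pathway 0 rose and 1 (12.5%) fell, against 9.71% and 8.06% of all tested genes. The 1 that fell was Ccnd2, the gene of cyclin D2. Ccnd2 had 3.67, 6.93, 3.81 and 3.18 CPM in spermidine libraries, 0.968, 1.17 and 1.25 CPM in aged libraries and 8.29, 3.16 and 6.23 CPM in young libraries. The aged libraries were the 3 lowest, and spermidine and young libraries overlapped. Its log2 fold change was -2.37 (SE 0.39, edgeR adjusted p = 0.00249) for aged minus young, held in every setting run. For spermidine minus aged the value of Ccnd2 was 1.96 (SE 0.37), past the threshold except without aged replicate 2 or 3, at 1.98 and 2.03. Of 23 other non-canonical genes 3 (13%, against 9.71% of all tested genes) rose in aged oocytes, the transcription factor gene Nfatc1 (log2 1.85, SE 0.35), the calcineurin gene Ppp3ca (log2 0.88, SE 0.26) and the kinase gene Camk2g (log2 0.53, SE 0.16), with edgeR adjusted p = 0.00540, 0.0337 and 0.0442. Cul1, Ldb1, the co-repressor gene Tbl1xr1, Rhoa and Camk2g were also lower with spermidine than in aged oocytes past the threshold, and they were no longer past it in 11, 11, 9, 11 and 10 alternative settings. Those past it against young oocytes were Dkk1, Lgr4 and Nfatc1 (higher) and Csnk1g3 (lower). Lgr4, Nfatc1 and Csnk1g3 were no longer past it in 6, 4 and 14 settings, and Dkk1 in 0. The aged minus young calls of Lgr6, Csnk1g1, Csnk1g2, Fbxw11, Cul1, Ppp3ca and Camk2g were each lost without any 1 young library or without spermidine replicate 2, and each also without at least 1 aged library. That of Ldb1 was lost without young replicate 1 or 3, at 0.91 and 0.89. With 1 library left out the log2 value of Cul1 went as low as 0.38 and that of Csnk1g2 as high as 0.99. The call of Rbx1 was lost with total count scaling, and that of Nfatc1 in none of the settings run. Cul1, Znrf3, Rspo2, Tbl1xr1, Rhoa, Lgr4 and Csnk1g3 were named after their values were seen.

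Wnt pathway members have longer transcripts than most genes in these oocytes, and length is a property that aged replicate 1 followed. The median transcript of the 27 tested members was 3644 bases, against 2825 bases over all tested genes, and 23 of the 27 were longer than the median gene. Among the longest 25% of all genes, over 4245 bases, the median log2 fold change was 0.33 for aged minus young and -0.16 for spermidine minus aged, and in the shortest 25% it was -0.24 and 0.20. The members' medians for those comparisons were 0.32 and -0.36. Aged replicate 1 was the highest of the 10 libraries for 11 of the 27 members (40.7%), against 21.0% of all tested genes, and the lowest for 0. Across the 27 members, which share their libraries, length and log2 fold change had r = -0.017 for aged minus young and r = 0.14 for spermidine minus aged. After correction for length and GC content in each library the members' medians were 0.09 for aged minus young and -0.21 for spermidine minus aged. Those of all tested genes were then 0.0063 and -0.0121. Still higher in aged oocytes were 3 members, where 817 of all genes were called higher with the correction and 1196 without it. Wls and Tcf7 passed in every alternative setting run, with Wls at log2 values of 1.24 to 1.60.

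**Figure D5:**
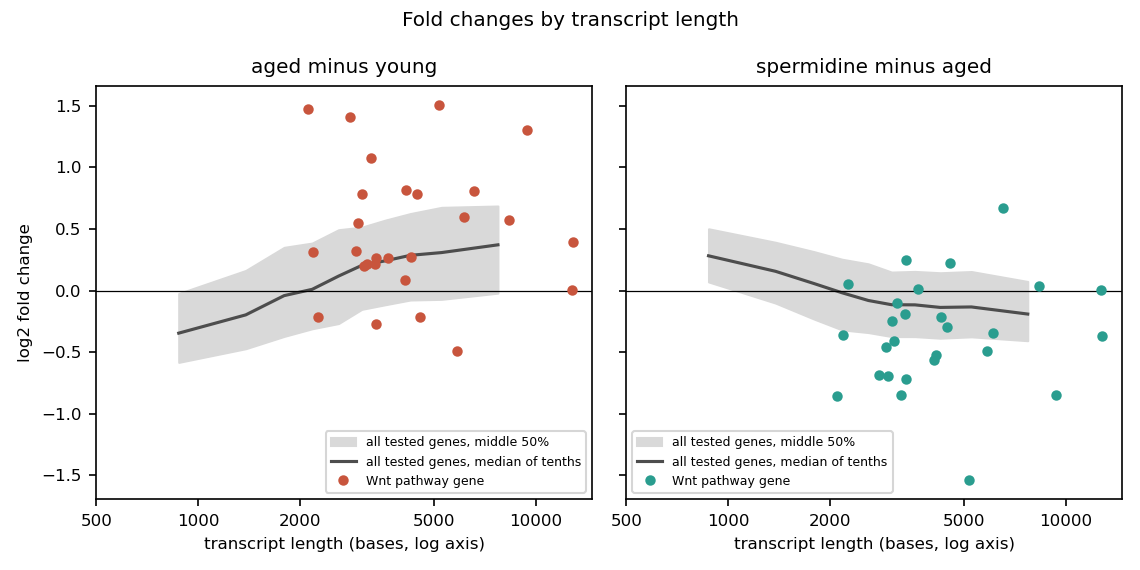
Log2 fold change against transcript length in bases (log axis) for aged minus young (left) and spermidine minus aged (right). Points are the 27 tested Wnt pathway members, the dark line is the median of all tested genes in 10 length classes, and the band holds the middle 50% of genes of a class. The medians climb with length in aged minus young and drop in spermidine minus aged, and 23 of the 27 members lie above the median length.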

How the data were processed

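The data are RNA sequencing counts of 10 mouse oocyte libraries (4 spermidine, 3 aged, 3 young), whose titles give the group. According to the submitters' processing notes the tools were RSEM 1.3.1, Bowtie2 2.3.4.3 and DESeq2 1.4.5, on build mm9, and no roles are stated. The authors deposited a table of expected counts, headed read counts per the file headers, in which 15.9% to 16.7% of a library's values are fractional. Beside them the authors deposited log2 fold changes, p-values and q-values of their own. Strand use in counting is not given in the sources used here. A gene and an overlapping or antisense partner therefore cannot be told apart.

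Expected counts were first rounded. In R 4.3.3, edgeR 4.0.16 filtered genes (filterByExpr) and scaled libraries (TMM), and a robust quasi-likelihood F test with 1 mean per group was fitted to all libraries and 12315 genes. Benjamini-Hochberg adjustment ran over all tested genes within a comparison, at a threshold of 0.05, and the SE of a fold change was derived from its F statistic. Low genes are limited by totals of 24222185 to 28730790 counts, and a floor of 3 counts speaks for counting error alone, as reads had no molecular identifiers. Lengths and GC content by Gene ID are those of a GENCODE annotation on GRCm38 rather than mm9 (97.4% of tested genes), and promoters are those of RefSeq on GRCm38.p6. The procedure was also run on simulated counts with known changes. These had the same spread for all genes and no length or GC trend, so that run does not speak to such trends.

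The members and gene lists were chosen with earlier results of these data known. Members given with a value per library are those past the threshold in any comparison, the highest per length in each role, and Ctnnb1, Gsk3b, Axin2, Lrp6 and Lef1. Of other pathway genes, up to 4 per list are named by smallest p in aged minus young among those that passed. Replicate numbers were not taken as pairs, since not every same-numbered pair varied together (correlations from -0.275 to 0.408, the highest that of spermidine replicate 1 with aged replicate 1), and no 2 libraries agreed within sampling noise. As alternatives, normalization used RLE factors or total counts, the filter was dropped or set at 10 CPM in 3 libraries, and the fit was made with DESeq2 1.42.0, with no robust step, with the compared groups alone, with replicate number as a block, or with length and GC correction. Each library was left out in turn, and aged replicate 1 jointly with spermidine replicate 1. Figures were drawn in Python 3.11.15 with matplotlib 3.10.9.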

Additional observations from a re-analysis of the deposited data

Results flagged for a closer look

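Nlk stood at 7.82 CPM in spermidine replicate 1, while the other 3 spermidine libraries lay between 4.45 and 4.70 CPM, a gap far larger than their spread. Ccnd2 stood at 6.93 CPM in spermidine replicate 2, against 3.18 to 3.81 CPM in the other 3. These were 2 of 45 genes checked in the 4 spermidine libraries, and chance flags about 1 gene in 20. Spermidine replicate 1 is also the spermidine library with the most positive length trend (r = 0.142), while spermidine replicate 3 had r = -0.154. The part of the length trend in the value of Nlk was not tested.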

How the results depend on the processing

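Wls and Tcf7 kept their direction and their call for aged minus young in all 20 alternatives run. Without leaving libraries out, the members' medians ran from 0.09 to 0.44 for aged minus young and from -0.50 to -0.21 for spermidine minus aged. The aged minus young median was 0.09 with length and GC correction, against 0.32 in the fit reported above. Over all tested genes it was 0.0063 with the correction and 0.10 without it. The count of members higher in aged oocytes, 5, was 3 after length and GC correction, and the count lower, 0, was 1 with that correction and 1 with aged replicate 1 and spermidine replicate 1 both left out. Over all genes the higher calls went from 1196 to 817 with the correction. The lower calls went from 993 to 945 with it and to 1288 without those libraries. With 1 library left out the count of members ran from 2 to 6 higher (3 without spermidine replicate 2, aged replicate 1, young replicate 1 or young replicate 2, and 2 without young replicate 3) and from 0 to 1 lower, with a members' median of 0.27 to 0.42. Over all genes the higher calls in the fits named were 935, 1028, 390, 847 and 461, in that order. For spermidine minus aged the 3 lower members became 6 with DESeq2, 1 with only the 2 groups compared and 1 with total count scaling, and 0 to 4 lower, 0 to 0 higher and a median of -0.51 to -0.15 with 1 library left out. With DESeq2, the 2 groups alone and total count scaling, 715, 59 and 106 of all genes were called lower, against 300 in the fit reported above. For spermidine minus young the 1 higher member became 3 with DESeq2, 0 with RLE factors, 3 without aged replicate 1 and spermidine replicate 1, 0 without a filter, 2 with only the 2 groups compared, 2 with the stricter filter and 4 with total count scaling, and 0 to 2 with 1 library left out. In the settings named the 424 higher calls over all genes became 551, 366, 488, 403, 452, 175 and 605, in that order. The 2 lower members became 1 without a filter, 1 with the stricter filter and 0 with total count scaling, and 0 to 3 with 1 library left out, where the members' median ran from -0.0247 to 0.19. Without a filter, with the stricter filter and with total count scaling, 201, 98 and 126 of all genes were called lower, against 236 in the fit reported above. Over all genes, 598 calls for spermidine minus aged became 1355 with DESeq2, 124 with only the 2 groups and 259 with total count scaling (99 to 1127 with 1 library left out), 2189 for aged minus young became 1179 with the stricter filter (827 to 2362), and 660 for spermidine minus young became 1073 with DESeq2 and 273 with the stricter filter (283 to 874). Total count scaling moved the median of all genes by 0.14 for aged minus young and 0.18 for spermidine minus young, and the split of higher to lower calls from 1196 and 993 to 1236 and 405 for aged minus young and from 424 and 236 to 605 and 126 for spermidine minus young.

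The replicate numbers were not taken as pairs, as a library correlated best with its own number in 4 of 18 cases. With the replicate block there were 998 calls for spermidine minus aged. The members higher and lower for spermidine minus young were 0 and 1 with it, against 397 and 234 of all genes. The block also gave Gsk3b a log2 value of -0.0325 for spermidine minus aged.

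Some values changed sign. For spermidine minus aged they were Ctnnb1 at 0.0223 and Axin2 at 0.0261 with length and GC correction, and Nfatc1 at 0.0431 without aged replicate 1 and spermidine replicate 1. For aged minus young they were Axin2 at -0.12 and Csnk1a1 at -0.0272 with the correction, Ctnnb1 at -0.0033 and Csnk1a1 at -0.0261 without those 2 libraries, and Csnk1g3 at 0.126 with total count scaling and 0.0302 with the stricter filter. For spermidine minus young they were Axin2 at -0.0942, Fbxw11 at -0.0987 and Ldb1 at -0.0189 with the correction, Ctnnb1 at -0.0742, Axin2 at -0.31 and Btrc at 0.032 without those 2 libraries, Btrc at 0.11, Camk2g at 0.083, Cul1 at 0.11 and Rspo2 at 0.0972 with total count scaling, Btrc at 0.0149 with the stricter filter, and Fbxw11 at -0.0322 with RLE factors and -0.0348 with DESeq2. With 1 library left out, values for spermidine minus aged ran from -0.28 to 0.0687 for Ctnnb1, -0.57 to 0.0116 for Axin2, -0.10 to 0.11 for Gsk3b and -0.35 to 0.0366 for Ppp3ca. For aged minus young they ran from -0.0199 to 0.13 for Csnk1a1 and -0.29 to 0.082 for Csnk1g3. For spermidine minus young they ran from -0.0985 to 0.19 for Ctnnb1, -0.33 to 0.25 for Axin2, -0.21 to 0.0531 for Btrc, -0.0018 to 0.42 for Prickle1 and -0.0793 to 0.0494 for Fbxw11. The causes were not tested. Of the calls among named genes, 4 of 17 for aged minus young, 0 of 11 for spermidine minus aged and 1 of 7 for spermidine minus young were lost in no alternative. Depth limits the 12 members near the floor of 3 counts.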
